A study of Mus musculus with 4 samples.

Results

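The genes described here are 10 genes that carry glucose, lactate and pyruvate across membranes or set how much pyruvate enters the mitochondrial matrix, out of 21938 protein-coding genes. They were chosen by name as parts of one pathway. For each gene, every differential ATAC-seq peak in the gene body or within 10 kb of one of its transcription start sites (TSSs) was taken, using the GENCODE M21 annotation on mm10. ATAC-seq marks open chromatin through the places where the Tn5 transposase can insert adapters. Hearts of wild-type (WT) mouse embryos and of embryos without SMYD1 (*Smyd1-KO*), both at embryonic day (E) 9.5, were each represented by 2 libraries. Every library was made from 4 pooled hearts, of which 40000 viable cells were used. SMYD1 is a striated muscle protein that methylates histones. The *Smyd1-KO* allele is a germline null allele, kept in heterozygous mice, and is not restricted to any cell type. Whole hearts were dissociated, so the nuclei of all cell types of the heart were mixed. More cells of a type and more open chromatin per cell therefore cannot be told apart.

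The peaks were those whose tags differed 2-fold or more between the genotypes. They are called *Smyd1-KO*-enriched where the mutant hearts had more, of which there were 25745, and WT-enriched in the other case, of which there were 106. Each peak is 149 bp wide and has 1 score. The score is read here as a scaled tag count over the combined libraries of the genotype in which the peak was called. All *Smyd1-KO* scores are whole multiples of 0.5 and WT scores of 0.1, so they are not plain tag counts. How they were scaled is not given in the sources used here. No value of a single library and no value of the other genotype stands beside a score. Therefore no spread between replicates and no test between genotypes can be given for any gene. The 95% interval printed with a score is a Poisson interval that takes a step of 0.5 to be 1 tag. It covers counting error only, and its width would be wrong if a step stood for another number of tags. The median score was 180.5 in the *Smyd1-KO*-enriched list. As all peaks have the same width, scores within this list can be set side by side. In a check of the tissue with marker lists, *Smyd1-KO*-enriched peaks by the same rule were found at 6 of 6 cardiomyocyte genes, 4 of 6 endothelial and endocardial genes and 3 of 6 erythroid genes. That is 13 of 18 marker genes, beside 62.6% of all protein-coding genes, so these counts say little about the tissue. The strongest peak per gene scored 245.5 to 599.5, 79.5 to 165.5 and 431 to 799.5 in these lists, and *Cdh5*, *Emcn*, *Gata1*, *Hbb-bh1* and *Alas2* had none. No marker gene had a WT-enriched peak. The part of cell composition in the results was not tested.

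Glucose enters cells through facilitative transporters of the SLC2A (GLUT) family, is broken down to pyruvate by glycolysis, and leaves as lactate or enters mitochondria as pyruvate. Monocarboxylate transporters (MCTs) of the SLC16A family move lactate and pyruvate together with protons across the plasma membrane. The mitochondrial pyruvate carrier, built from MPC1 and MPC2, brings pyruvate into the matrix, and the pyruvate dehydrogenase kinases (PDKs) phosphorylate and switch off the enzyme complex that turns it into acetyl-CoA. PFKFB3 makes fructose 2,6-bisphosphate, a strong activator of glycolytic flux. The embryonic heart relies largely on glycolysis and lactate, and the use of mitochondrial fuel grows as the heart matures. Several of these genes, *Slc2a1*, *Slc16a3*, *Pfkfb3* and *Pdk1* among them, are textbook targets of the hypoxia-inducible factors (HIFs), whose core site, the hypoxia response element (HRE), holds the letters ACGTG or GCGTG.

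The sequences that carry most of the results are printed next, 5′ to 3′ on the strand of the gene, with mm10 coordinates. They show the DNA under a promoter peak of 8 of the 9 genes with a peak, and under an intronic peak of *Slc2a3* and of *Pfkfb3* that holds the letters ACGTG. Stretches inside annotated untranslated exons were left out, so a line can be shorter than its peak. Capitals mark the SP1 string GGGCGG, the NFY string CCAAT, the ETS string CCGGAA and the HRE string ACGTG, each on either strand. The E-box string CACGTG contains ACGTG and is marked with it. The *Slc2a3* peak closest to a TSS lies wholly, and the stronger *Mpc2* peak almost wholly, in an untranslated exon, and neither is printed.
Slc2a1 upstream of the TSS, chr4:119108597-119108710, plus strand: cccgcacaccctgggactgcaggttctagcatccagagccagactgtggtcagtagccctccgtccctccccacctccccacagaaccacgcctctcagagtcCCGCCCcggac
Slc2a3 intron, chr6:122764688-122764836, minus strand: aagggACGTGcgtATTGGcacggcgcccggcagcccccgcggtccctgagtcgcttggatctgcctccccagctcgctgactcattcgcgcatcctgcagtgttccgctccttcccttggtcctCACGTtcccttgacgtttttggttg
Slc2a4 upstream of the TSSs, chr11:69948189-69948303, minus strand: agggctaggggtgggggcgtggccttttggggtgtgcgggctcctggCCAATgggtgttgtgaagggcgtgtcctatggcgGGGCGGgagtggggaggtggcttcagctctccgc
Slc16a1 whole peak, chr3:104638442-104638590, plus strand: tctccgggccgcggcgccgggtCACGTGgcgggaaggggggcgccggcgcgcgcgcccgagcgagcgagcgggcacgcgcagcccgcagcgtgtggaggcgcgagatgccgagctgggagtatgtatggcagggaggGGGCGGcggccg
Slc16a3 upstream of the first covered TSS, chr11:120948975-120949052, plus strand: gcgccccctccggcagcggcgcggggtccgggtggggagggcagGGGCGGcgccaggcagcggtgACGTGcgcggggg
Slc16a3 internal peak, chr11:120950898-120951033, plus strand: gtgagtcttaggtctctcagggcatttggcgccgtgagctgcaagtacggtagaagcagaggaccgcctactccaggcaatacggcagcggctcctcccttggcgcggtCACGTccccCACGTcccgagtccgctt
Pfkfb3 upstream of the TSSs, chr2:11502102-11502168, minus strand: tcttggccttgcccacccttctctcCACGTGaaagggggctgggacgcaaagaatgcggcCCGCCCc
Pfkfb3 intron, chr2:11503223-11503371, minus strand: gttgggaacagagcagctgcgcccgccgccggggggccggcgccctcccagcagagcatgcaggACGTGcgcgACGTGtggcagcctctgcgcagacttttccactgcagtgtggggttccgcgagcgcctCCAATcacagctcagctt
Pdk1 upstream of the TSS, chr2:71873142-71873223, plus strand: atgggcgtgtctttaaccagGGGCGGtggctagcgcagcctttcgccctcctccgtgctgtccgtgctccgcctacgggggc
Mpc1 upstream of the TSS, chr17:8283634-8283761, plus strand: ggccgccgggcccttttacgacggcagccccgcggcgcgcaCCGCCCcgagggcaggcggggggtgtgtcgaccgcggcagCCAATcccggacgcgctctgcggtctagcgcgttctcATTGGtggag
Mpc2 first peak, chr1:165460524-165460672, plus strand: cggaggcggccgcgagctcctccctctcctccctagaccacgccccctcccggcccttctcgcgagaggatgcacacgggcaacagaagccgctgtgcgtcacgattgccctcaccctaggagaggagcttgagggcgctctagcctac

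Differential peaks were found at 9 of the 10 genes, and every one of them was *Smyd1-KO*-enriched. There were 21 such peaks: 6 at *Slc2a3*, 4 at *Pfkfb3*, 2 each at *Slc2a1*, *Slc2a4*, *Slc16a3* and *Mpc2*, and 1 each at *Slc16a1*, *Pdk1* and *Mpc1*. *Pdk4* had none. No gene had a WT-enriched peak, and 0.155% of protein-coding genes had one. The background of *Smyd1-KO*-enriched peaks was high, since 62.6% of protein-coding genes had at least 1 by the same rule. Of the 21 peaks, 8 covered a TSS of the gene, 13 lay within 1 kb of such a TSS, 15 within 3 kb, and 6 lay farther away. For 19 of the 21, the gene named here also had the nearest TSS of any annotated gene.

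**Figure D1:**
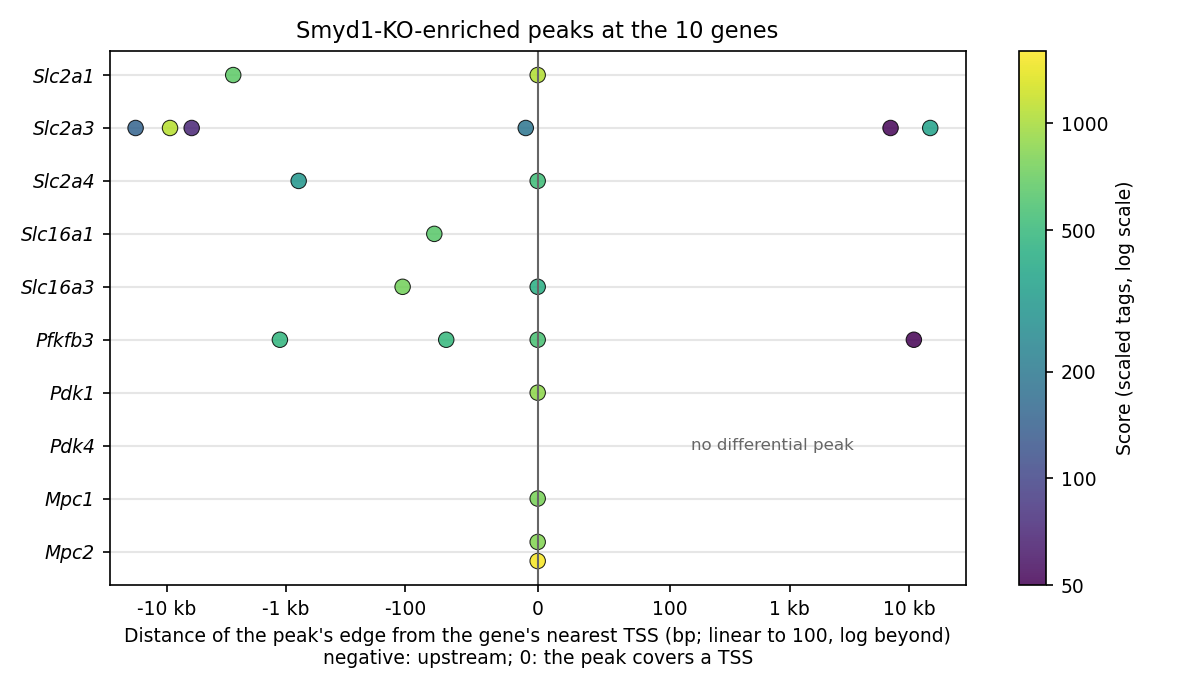
Position of each of the 21 *Smyd1-KO*-enriched peaks along a horizontal axis of distance in bp from the nearest TSS of its gene (linear to 100, log scale beyond, negative upstream), with 1 row per gene and the score in scaled tags as color. The 2 *Mpc2* peaks are offset vertically to be seen, 8 peaks sit on a TSS, 6 lie beyond 3 kb, and the row of *Pdk4* is empty.

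*Slc2a1* encodes GLUT1, the transporter of basal glucose uptake that prevails in the embryonic heart. Its gene lies at chr4:119108711-119137983. A peak at chr4:119108597-119108745 covered the TSS of a coding transcript and reached into the 5′ UTR exon, with a score of 1060 (95% interval 1015.4 to 1106.1). It ranked 599 among all *Smyd1-KO*-enriched peaks. The other peak, at chr4:119105801-119105949, lay 2762 bp upstream of the TSS, outside the gene, and scored 659 (623.9 to 695.6). *Slc2a1* thus had the second highest score among promoter peaks of the 10 genes, after *Mpc2*, and a separate upstream peak 2647 bp away. The ACGTG string of the promoter peak runs across the TSS and so is not whole in the printed line.

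*Slc2a4* encodes GLUT4, the insulin-responsive transporter of muscle and fat. Its gene, at chr11:69942539-69948188, is the shortest of the 10. The peak at chr11:69948155-69948303 covered 3 of its TSSs and scored 531 (499.5 to 563.9). A further peak at chr11:69948969-69949117 lay 781 bp upstream with a score of 304.5 (280.8 to 329.7). Both peaks were also within 10 kb of *Ybx2*, whose TSS was 7611 and 8425 bp away.

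*Slc2a3* encodes GLUT3, a high-affinity transporter best known from neurons and early embryos. Its gene model, at chr6:122727809-122801640, spans 73832 bp with 8 TSSs, and it held the most peaks and the widest range of scores of the 10 genes. The peak nearest to a TSS, at chr6:122742531-122742679, lay 9 bp from the TSS of a noncoding transcript and 66 bp from that of a coding one, in a 5′ UTR exon, and scored 191 (172.3 to 211.1). Of the 13 peaks closer than 1 kb to a TSS of their own gene this had the lowest score, and its interval did not overlap that of the *Slc2a1* or the *Slc2a4* promoter peak.

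The other *Slc2a3* peaks lay farther from its TSSs. In introns, the peaks at chr6:122764688-122764836 and chr6:122761100-122761248 scored 357.5 and 148. Those at chr6:122772779-122772927 and chr6:122786115-122786263 scored 51.5 and 70.5. Of these 4 intronic peaks, the one with 357.5 was above the median of the list and the other 3 were below it. In the order given, the 4 peaks were 15121, 18180, 7030 and 6158 bp from the nearest *Slc2a3* TSS. From the nearest *Slc2a3* TSS of a coding transcript they were 21768, 18180, 28713 and 15377 bp away. The strongest peak, at chr6:122810993-122811141, scored 1092.5 (1047.2 to 1139.3) and lay 9353 bp upstream of the most distal TSS. It was 29 bp from the TSS of the gene model *Gm5112*, which the annotation does not class as protein-coding, and 8773 bp from that of *Foxj2*. The high score listed for *Slc2a3* is thus that of a peak closer to another gene.

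*Slc16a1* encodes MCT1, a carrier used for both uptake and release of lactate. Its gene, at chr3:104638668-104658462, has 1 annotated TSS. The single peak, at chr3:104638442-104638590, ended 78 bp upstream of it, in no exon, and scored 642 (607.4 to 678.1). It was the most GC-rich of the 21 peaks, with 79.9% GC and an observed to expected CpG ratio of 1.22, and it held an E-box string.

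*Slc16a3* encodes MCT4, a carrier typical of glycolytic cells that export lactate. Its gene lies at chr11:120948480-120960868. The peak at chr11:120948975-120949123 covered 4 of its TSSs and scored 428.5 (400.3 to 458.2). A peak at chr11:120950885-120951033, separated from it by 1761 bp inside the gene, scored 756 (718.4 to 795.1) and lay 105 bp upstream of the TSS of a noncoding transcript and 197 bp from that of a coding one. The internal peak was higher than the one on the 4 TSSs, with intervals that did not overlap. Each of the pair held 2 ACGTG strings, which stand in capitals in the printed lines where they are whole.

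*Pfkfb3* lies at chr2:11471433-11554077 with 13 annotated TSSs, and its peaks clustered at internal ones. The peak at chr2:11502020-11502168 covered 3 TSS positions used by 11 transcripts and scored 566.5 (534 to 600.5). Flanking it, an intronic peak at chr2:11501365-11501513 scored 487.5 and lay 69 bp from a TSS, and another at chr2:11503223-11503371 scored 478.5 and lay 1122 bp upstream. These 3 peaks were 506 and 1054 bp apart. The interval of the central one, which covered the TSSs, lay above those of its neighbours, but overlapped them when 1 unit of score was read as 1 tag. A distant intronic peak at chr2:11542751-11542899 scored 50.5. It lay 11023 bp from the nearest *Pfkfb3* TSS and 8057 bp from that of *Gm37975*, the nearest of any gene. RefSeq gives a further *Pfkfb3* promoter at the 5′ end of the gene model, chr2:11553880-11554179, and no *Smyd1-KO*-enriched peak overlapped it, although its CpG ratio of 0.851 was above the 0.720 of the internal promoter that carried the peak.

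*Pdk1* and *Pdk4* encode 2 of the kinases that inactivate pyruvate dehydrogenase. PDK1 is known as a hypoxia-induced form, and PDK4 as a form induced by fasting and fatty acids and abundant in the adult heart. The *Pdk1* gene lies at chr2:71873224-71903858, and its single peak, at chr2:71873142-71873290, covered the TSS of a coding transcript and scored 881.5 (840.8 to 923.6). The *Pdk4* gene, at chr6:5483351-5496309, had no differential peak in the gene body or within 10 kb. The nearest *Smyd1-KO*-enriched peak to a *Pdk4* TSS was 53345 bp away, at chr6:5442768-5442916, scored 166, and was nearest to *Asb4*. The lists cannot tell whether the *Pdk4* promoter was open in both genotypes with less than a 2-fold difference or closed in both.

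*Mpc1* and *Mpc2* encode the partners of the mitochondrial pyruvate carrier. The single *Mpc1* peak, at chr17:8283634-8283782 in the gene at chr17:8282904-8297661, covered the TSS of a coding transcript and scored 772.5 (734.5 to 812). *Mpc2*, at chr1:165460637-165481214, had a peak at chr1:165461028-165461176 that covered a coding TSS and scored 1532 (1478.2 to 1587.2). This was the highest score of the 21 peaks and ranked 51 in the whole list. A second *Mpc2* peak, at chr1:165460524-165460672, covered the TSS of a noncoding transcript and scored 813.5 (774.4 to 854). The gap between them was 355 bp. The neighbouring gene *Dcaf6* has a TSS 49 bp from the second peak and 553 bp from the stronger one, so neither peak belongs to *Mpc2* alone by distance.

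**Figure D2:**
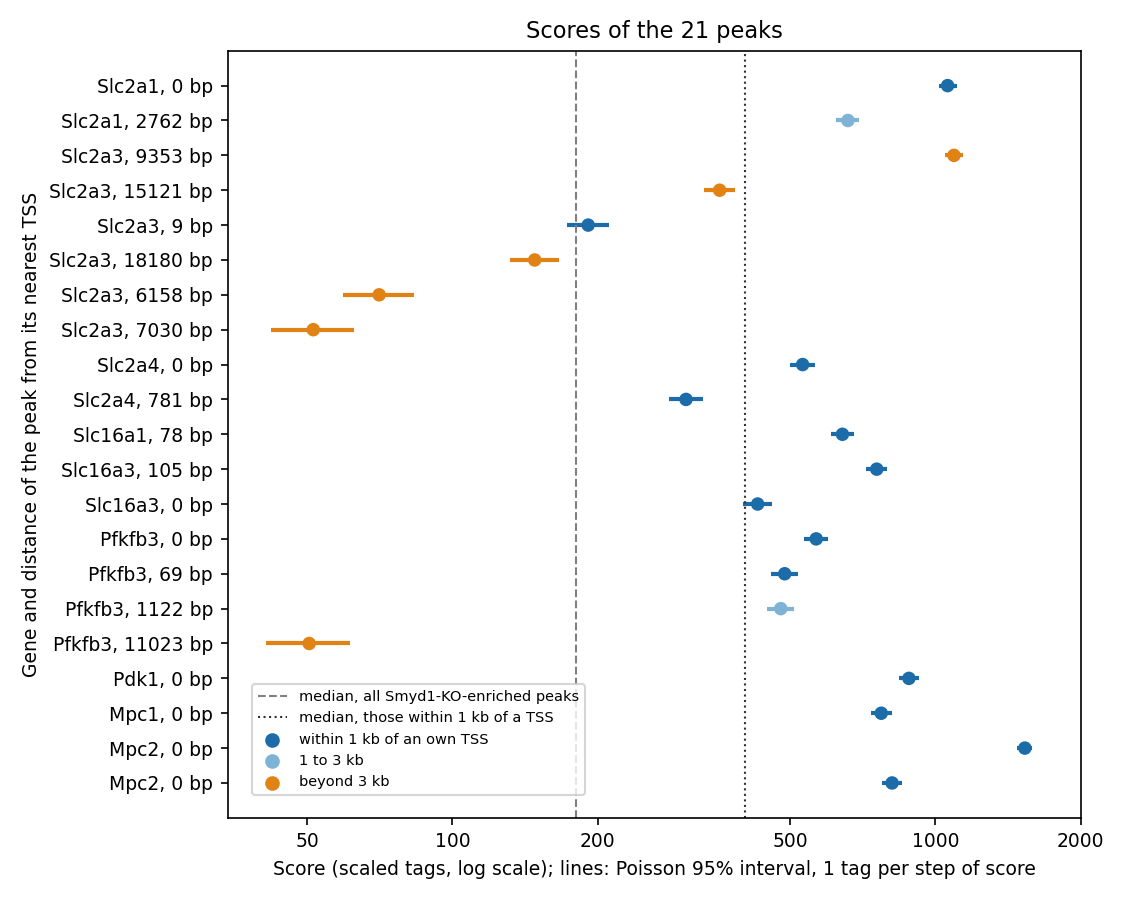
Score in scaled tags (horizontal axis, log scale) of the 21 *Smyd1-KO*-enriched peaks, each labelled with its gene and its distance from the nearest TSS of that gene; lines are Poisson 95% intervals for 1 tag per step of 0.5 and color gives the distance class. The dashed line is the median of all *Smyd1-KO*-enriched peaks, 180.5, and the dotted line that of those within 1 kb of a TSS, 402.5; the 4 points left of the dashed line are 3 *Slc2a3* peaks and 1 *Pfkfb3* peak, all beyond 3 kb.

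By the score of the strongest peak, the genes ranked *Mpc2*, *Slc2a3*, *Slc2a1*, *Pdk1*, *Mpc1*, *Slc16a3*, *Slc16a1*, *Pfkfb3* and *Slc2a4*. The score is the level in the mutant libraries alone, so a higher score does not mean a larger gain over WT. The intervals of neighbours in this order overlapped in 3 pairs: *Slc2a3* and *Slc2a1*, *Mpc1* and *Slc16a3*, and *Pfkfb3* and *Slc2a4*. This tally depends on the unknown scaling. With 1 unit of score read as 1 tag the intervals are wider, and *Pdk1* and *Mpc1* and *Slc16a1* and *Pfkfb3* overlapped too, which makes 5 pairs. Under both readings the intervals were apart between *Mpc2* and *Slc2a3*, between *Slc2a1* and *Pdk1*, and between *Slc16a3* and *Slc16a1*. Compared with the strongest peak of each protein-coding gene that had any, the *Mpc2* score was above 99.5% of them and the *Slc2a4* score above 60.9%. When only peaks within 1 kb of a TSS were used, *Slc2a3* moved from above 94.7% of the genes to above 10.3%, because its 1092.5 peak is 9353 bp away.

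Over the 9 genes with a peak, the strongest peak had a median score of 772.5, with a range from 531 to 1532. Over the 13733 protein-coding genes with a peak by the same rule, the median was 442. With peaks within 1 kb only, the medians were 756 over the 9 genes and 469.5 over 10561 genes. Of the 21 peaks, 17 were at or above the median of the list. Scores of at least 500 were seen in 11 of them, beside 18.6% of the list and 36.8% of its peaks within 1 kb of a TSS. Scores of at least 1000 were seen in 3, beside 2.92% and 5.97%. Scores also differed by position. For this comparison the TSSs of all annotated genes were used, which puts the *Slc2a3* peak beside *Gm5112* in the near class. Peaks within 1 kb of any TSS had a median of 402.5 in the whole list and 699 over the 14 such peaks here. Beyond 3 kb of any TSS the medians were 87 in the list and 70.5 over 5 peaks. These are descriptions of a chosen set of genes and were not tested.

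**Figure D3:**
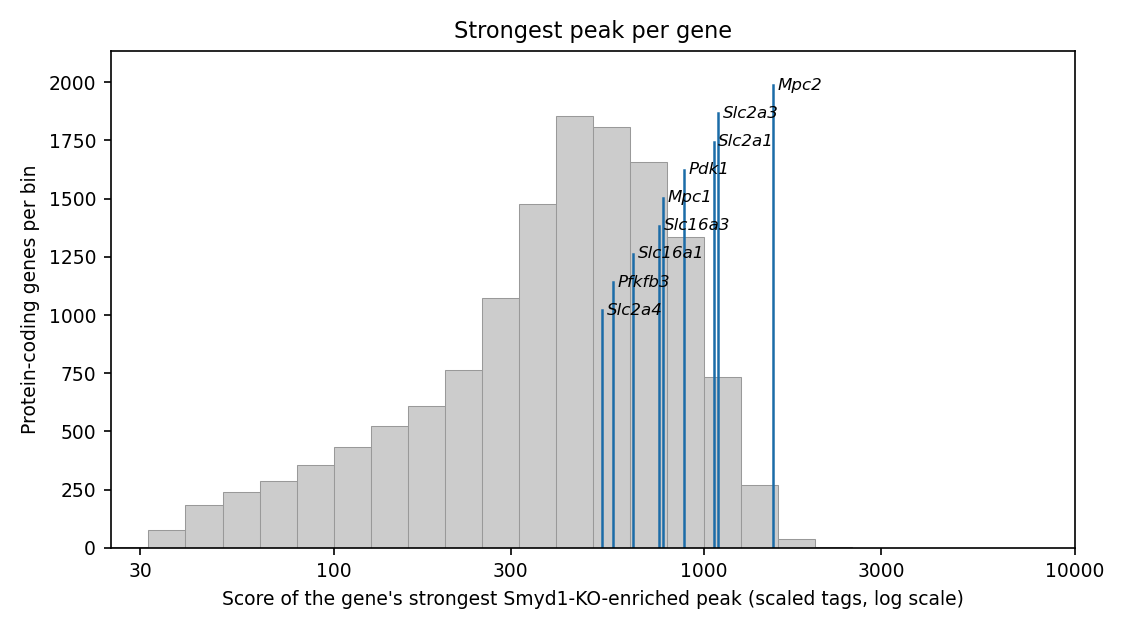
Histogram of the score of the strongest *Smyd1-KO*-enriched peak per gene (horizontal axis, scaled tags, log scale) over the 13733 protein-coding genes with such a peak, with vertical lines at the 9 genes described here. The lines lie between 531 for *Slc2a4* and 1532 for *Mpc2*, all above the median of 442; the heights of the lines differ so that the names can be read and carry no value.

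Counts of genes were read against the background in the same way. With a limit of 3 kb from a TSS, 9 of the 10 genes and 51.2% of all protein-coding genes had a *Smyd1-KO*-enriched peak, and with a limit of 1 kb 9 of the 10 and 48.1% did. A peak covered a TSS at 7 of the 10 and at 27.8% of all, the exceptions with a peak being *Slc2a3* and *Slc16a1*, whose closest peaks stopped 9 and 78 bp from a TSS. At least 2 peaks were found at 6 of the 10 and at 29.4% of all. Promoters were then divided by CpG content. RefSeq promoter sequences, on GRCm38.p6 and 300 bp long, matched 8 of the 10 genes. A CpG ratio of at least 0.6 in any promoter was found at 7 of these, all 7 had a peak within 1 kb of a TSS, and 75.5% of the 8689 protein-coding genes of that class did. The remaining one was *Pdk4*, with a CpG ratio of 0.436 and 60.7% GC. *Slc2a3* and *Slc2a4* had no entry in the promoter table.

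**Figure D4:**
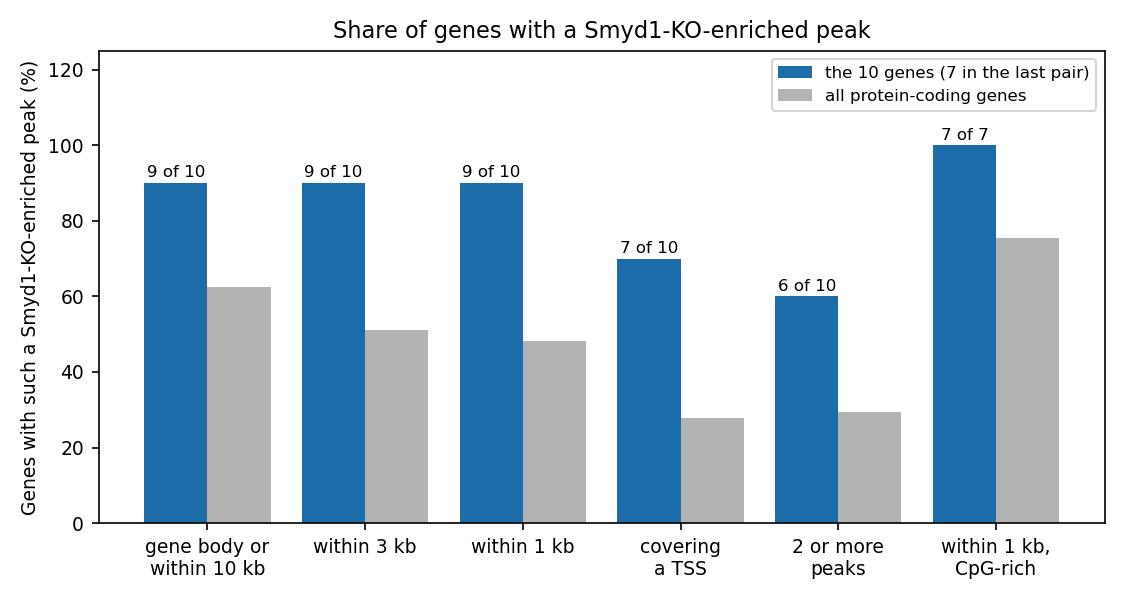
Percentage of genes (vertical axis) with a *Smyd1-KO*-enriched peak under 6 definitions, for the 10 genes (blue, counts above the bars; 7 genes in the last pair) and for all protein-coding genes (grey). The blue bars run from 6 of 10 to 7 of 7, and the grey bars from 27.8% to 75.5%; with so few genes, 1 gene moves a blue bar by a large step.

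Base composition was compared with the list as a whole and by distance class. Over the 21 peaks, the median GC content was 64.4% and the median CpG ratio 0.682, beside 57.7% and 0.416 in the list. Within 1 kb of any TSS, the median GC content was 67.1% over the 14 peaks and 65.8% over all such peaks, and the median CpG ratio was 0.777 and 0.781. Beyond 3 kb of any TSS the median GC content was 53.0% over the 5 peaks and 52.3% in the list, and the median CpG ratio was 0.316 and 0.207. The lowest CpG ratio of the 14 was 0.122, at the *Slc2a3* peak closest to a TSS. The *Slc2a3* peak beside *Gm5112* had 0.191, and the distant intronic *Pfkfb3* peak, beyond 3 kb, had 0. None of the 21 peaks contained a 36-base word that recurs elsewhere in the genome.

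Fixed strings of 11 motifs were then searched on both strands. The HRE string ACGTG was found in 10 of the 21 peaks, at 6 genes, beside 10.1% of all *Smyd1-KO*-enriched peaks. Within 1 kb of any TSS it was in 6 of 14 peaks, beside 12.9% of such peaks, and it was in 19.6% of all RefSeq promoters, which are longer. The peaks with the string were the promoter peak of *Slc2a1*, 3 intronic peaks of *Slc2a3*, the upstream peak of *Slc2a4*, the *Slc16a1* peak, both *Slc16a3* peaks and 2 *Pfkfb3* peaks. None of the *Pdk1*, *Mpc1* and *Mpc2* peaks held it. As the printed lines show, it came as a closely spaced pair in the internal *Slc16a3* peak and in the *Pfkfb3* peak at chr2:11503223-11503371. In the *Slc16a1* peak and the *Pfkfb3* peak at chr2:11502020-11502168 the letters were part of the E-box string CACGTG, which was in 2 of the 21 peaks and 3.24% of the list. A match is a run of letters and shows neither binding nor use of the site, and the variant GCGTG was not searched.

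The other strings were spread differently. The SP1 string GGGCGG was in 8 of the 21 peaks, at 7 genes, beside 29.1% of the list, and in 7 of the 14 within 1 kb of any TSS beside 51.6%. The NFY string CCAAT was in 7 peaks at 5 genes, among them *Mpc1*, *Mpc2* and *Slc2a4*, beside 19.6%. Within 1 kb of any TSS it was in 4 of 14 beside 24.8%. The ETS string CCGGAA was in 2 peaks, beside 8.38%, and in 1 of those 14 beside 14.6%. The GATA string AGATAA and the MEF2 motif were found in 1 peak each, beside 8.87% and 1.76%. In both cases this was the *Slc2a3* peak 9 bp from a TSS, and within 1 kb the shares were 2.63% and 0.613%. The TEAD string GGAATG was in 1 peak, beside 10.6%, and in 0 of the 14 beside 5.65%. The CREB string TGACGTCA, the NRF1 string GCGCATGC and the CTCF motif were in 0 of the 21, beside 0.789%, 1.38% and 4.34%. Within 1 kb of any TSS the shares were 1.44%, 2.48% and 1.5%. A missing match says only that these letters are not in these windows.

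**Figure D5:**
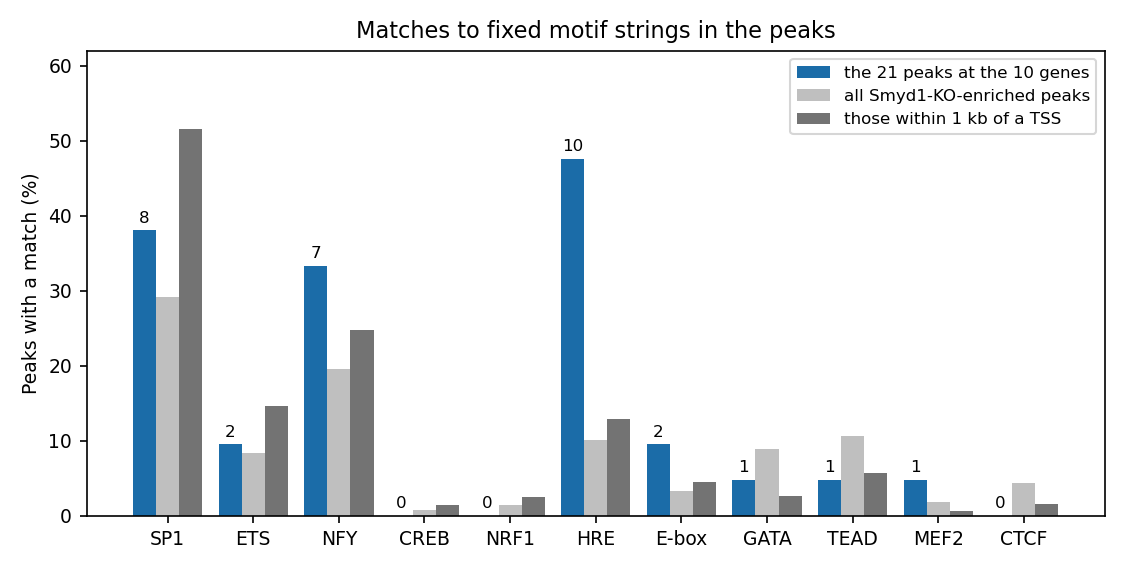
Percentage of peaks (vertical axis) with at least 1 match to each of 11 motifs, for the 21 peaks at the 10 genes (blue, number of peaks above the bar), all 25745 *Smyd1-KO*-enriched peaks (light grey) and those within 1 kb of a TSS (dark grey). The HRE bar stands for 10 of 21 peaks beside 10.1% and 12.9%, and the SP1 bar for 8 of 21 beside 29.1% and 51.6%.

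A list of 45 other genes of the same pathway was examined with the same rule. *Smyd1-KO*-enriched peaks were found at 33 of them, 28 of these within 3 kb of a TSS, and WT-enriched peaks at 0. These counts stand beside the 62.6% and 51.2% of all protein-coding genes. The median of the strongest score was 399 over the 33 genes, with a range from 38.5 to 1117, beside 772.5 over the 9 genes described above and 442 over all 13733 protein-coding genes with a peak.

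By the same rule, 62.6% of all protein-coding genes had a peak. The groups of the pathway list, of 3 to 16 genes each, differed in how many genes had a peak. Among other glucose transporters it was 5 of 11, and the highest were at the intracellular transporter gene *Slc2a8* with 948.5 and the proton-coupled inositol transporter gene *Slc2a13* with 539. *Slc2a2*, *Slc2a5*, *Slc2a6*, *Slc2a7*, *Slc5a1* and *Slc5a2* had none, and several of these are best known from liver, gut or kidney. Among monocarboxylate transporters and partners it was 11 of 16, and the highest peaks within 3 kb of a TSS were at *Bsg*, which encodes basigin, the chaperone of MCT1 and MCT4 at the membrane, with 917.5 and at *Slc16a6* with 434.5. A peak of *Slc16a8* farther from its TSSs scored 640.5. *Slc16a4*, *Slc16a9*, *Slc16a10*, *Slc5a8* and *Slc5a12* had none.

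Of all protein-coding genes, 62.6% had a peak by the rule and 51.2% within 3 kb of a TSS. All 11 genes of pyruvate dehydrogenase and its regulators had a peak, 10 of them within 3 kb of a TSS. The highest were at *Pdhx*, the E3-binding subunit, with 1117 and at *Pdhb*, an E1 subunit, with 1113.5. *Pdk2* and *Pdk3*, the kinases closest in function to *Pdk1* and *Pdk4*, scored 939.5 and 362.5, so *Pdk4* was the only gene of the 4 kinases without a peak. Among the other enzymes of fructose 2,6-bisphosphate, *Pfkfb4* scored 757 and *Pfkfb2* 399, and *Tigar* had none. All 3 genes of lactate dehydrogenase and uptake control had a peak, with *Ldhb* at 462.5 and *Txnip*, which restrains glucose uptake, at 435.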

How the data were processed

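The authors processed ATAC-seq libraries of WT and mutant hearts. They used BWA-MEM for alignment to mm10, HOMER 4.10.3 for peak calling and ChIP-Seeker 1.20.0 for annotation. Their cutoff for a differential peak was a 2-fold change. Each list holds a single score per peak and names no library, so the libraries of a genotype are taken here as combined. The deposited score is a signal, a scaled count of tags in a peak. *Smyd1-KO* scores are multiples of 0.5, and the scaling is not given in the sources used here. Handling of duplicates, reads with several positions and the Tn5 offset is not given in the sources used here, and each could change the list. Library depth is unknown from the lists, and its part in the uneven sizes of the 2 lists, 25745 and 106 peaks, was not tested.

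The 2 lists were joined to GENCODE M21 with Python 3.11.15, pandas 2.3.3, numpy 2.4.6 and scipy 1.17.1. Distance ran from the nearer edge of a peak to a TSS of any transcript. Positions count from 1, and a shift of 1 base is possible. The scripts were checked on simulated peaks. All 10 genes were named, and of 5 pathway groups the 2 genes with the highest peak within 3 kb and those without a peak. Other names were chosen after their values were seen (*Pdk2*, *Pdk3*, *Slc16a8*). Genes and lists were chosen with earlier results of these data known. Peak counts within 1 kb, covering a TSS or of at least 2, the CpG ratio of 0.6, the score classes, the letters of the motifs and the reading of a 0.5 step as 1 tag in the intervals were set after peak values had been seen. No test was possible, as a peak has 1 pooled value in 1 genotype. Sequences and promoters are from RefSeq GRCm38.p6.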

Additional observations from a re-analysis of the deposited data

How the results depend on the processing

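The numbers of the 10 genes with a peak of either list and within 3 kb of a TSS, the number of their peaks, the median of their strongest scores and the number of other pathway genes with a peak were recomputed under other windows, definitions of a TSS, distances, assignments to genes, score thresholds and a filter on repeated sequence. Of 62 such values, 59 stayed within 1.5 times the reported count or, for the median, within the Poisson interval of its score. The peak count fell from 21 to 14 at its lowest within that limit. Some of the 62 values could not move. The 11 for WT-enriched peaks were bound to be 0, as no such peak lay closer than 3233778 bp to a TSS of the 10 genes. The filter on repeated sequence could not change the values of the 10 genes, as none of their peaks held a recurring word. With a 50 kb window the peaks at the 10 genes were 47 in place of 21, and the median of the strongest score was 881.5 in place of 772.5. With only peaks at or above the 75th percentile of their list, 16 of the 45 other pathway genes had a peak in place of 33. The other counts and medians, among them those within 1 kb, covering a TSS, by CpG content, score class or motif, were not recomputed. Under the alternatives run, 9 of the 10 genes had a *Smyd1-KO*-enriched peak and 0 had a WT-enriched one. Within 3 kb of a TSS the number was 7 to 9. No paired analysis was possible because each value comes from the joined libraries of 1 genotype and carries no replicate. For the same reason leaving out a replicate was not run. Neighbouring genes with overlapping score intervals were 3 pairs with 1 tag per step of 0.5 and 5 pairs with 1 tag per unit of score, a choice made after seeing the data. Counting intervals do not cover the spread between pools of hearts. Places with less than a 2-fold difference were not used here.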
